A study of Drosophila melanogaster with 14 samples.

Results

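In Kc167 cells, a line from Drosophila melanogaster embryos, 847 regions of the chromosome arms were listed as bound by at least 1 insulator protein after 48 h of ecdysone and at no earlier time. They were found by pooling the deposited 3 h and 48 h peak lists of CP190, Su(Hw), dCTCF and BEAF-32 on the arms X, 2L, 2R, 3L, 3R and 4 and merging peaks that overlapped by 1 bp or more. The members were chosen by the listed peaks themselves: a merged region was kept when it held 48 h peaks, no 3 h peak, and overlapped no 0 h peak of any of the 4 proteins. The rule left 847 of 12502 merged regions with a 48 h peak, or 6.77% (95% Wilson interval 6.35 to 7.23), and of 13475 merged regions in all.

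The proteins were mapped by chromatin immunoprecipitation and sequencing in cells given 20-hydroxyecdysone (20HE) for 3 or 48 h and in cells without it (0 h). The concentration was 5e-07 M per the 3 h labels, and the 48 h labels give the same number without a unit. All groups were the same cell line in serum-free medium, and each protein and time had 1 library, so the series has 12 ChIP lists and no replicates. The antibodies were the submitters' own, that for BEAF-32 being named anti-BEAF32B. No test between times was possible, intervals cover counting error only, and differences between classes of regions were not tested.

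Insulator proteins bind sites that separate chromatin domains and that limit which enhancers reach which promoters. Su(Hw), dCTCF and BEAF-32 each recognise DNA directly through zinc fingers, while CP190 is mostly brought to DNA by such partners and is needed for the insulator activity of several of them. 20-hydroxyecdysone is the steroid that drives moulting and metamorphosis in flies. It acts through the ecdysone receptor, first on early genes that encode transcription factors and later on the targets of those factors. Kc167 cells respond to it by changing shape and leaving the cell cycle. The 2 treated times thus sample an early and a late stage of that response.

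The arm lists held 3333 to 8492 peaks each. Of 13698 regions merged from all 12 lists, 10570 (77.2%) held peaks at 0, 3 and 48 h. There were 317 regions with peaks at 0 h alone, 602 with peaks at 3 h alone and the 847 of 48 h, so the 48 h class was the largest of the 3. With each protein's lists shortened to equal length by score, the counts were 470 at 0 h, 363 at 3 h and 708 at 48 h. The order of 0 h and 3 h thus depended on list length, and 48 h stood highest both ways. Another 901 regions were absent at 0 h and bound at 3 and 48 h.

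Su(Hw), the protein that binds the gypsy insulator, formed most of the 48 h-only regions. It was present in 568 of the 847 (67.1%, 63.8 to 70.1), and in 514 of them it was alone. BEAF-32, a boundary element factor often found near gene starts, was present in 219 regions (25.9%, 23.0 to 28.9), 178 times alone. CP190 was present in 69 regions (8.15%) and alone in 57, and dCTCF, the fly counterpart of CTCF, in 52 regions (6.14%) and alone in 42. No region held more than 1 peak of the same protein, so these counts are also counts of peaks. Among the 10754 regions with a 48 h peak that overlapped a 0 h peak, Su(Hw) was present in 66.1% (65.2 to 67.0). Its share at 48 h only was thus near that of regions bound before. The other 3 proteins had larger shares there, with 44.9% for BEAF-32, 50.3% for CP190 and 29.3% for dCTCF.

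Read against the lists, 6.82% of the 48 h Su(Hw) peaks lay in such regions, beside 3.71% of BEAF-32, 1.56% of dCTCF and 1.22% of CP190 peaks. The background at the other treated time, by the same rule with the times exchanged, was 4.81% of 12504 regions with a 3 h peak. There the shares were 4% of the 3 h Su(Hw) peaks, 2.99% of BEAF-32, 1.3% of dCTCF and 0.943% of CP190 peaks. The Su(Hw) intervals did not overlap (6.30 to 7.38 at 48 h only, 3.61 to 4.44 at 3 h only), and those of the other 3 proteins did. Su(Hw) was present in 56.5% of the 602 regions bound at 3 h only and in 30.0% of the 901 regions new at both times, where BEAF-32 was present in 69.5%.

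**Figure D1:**
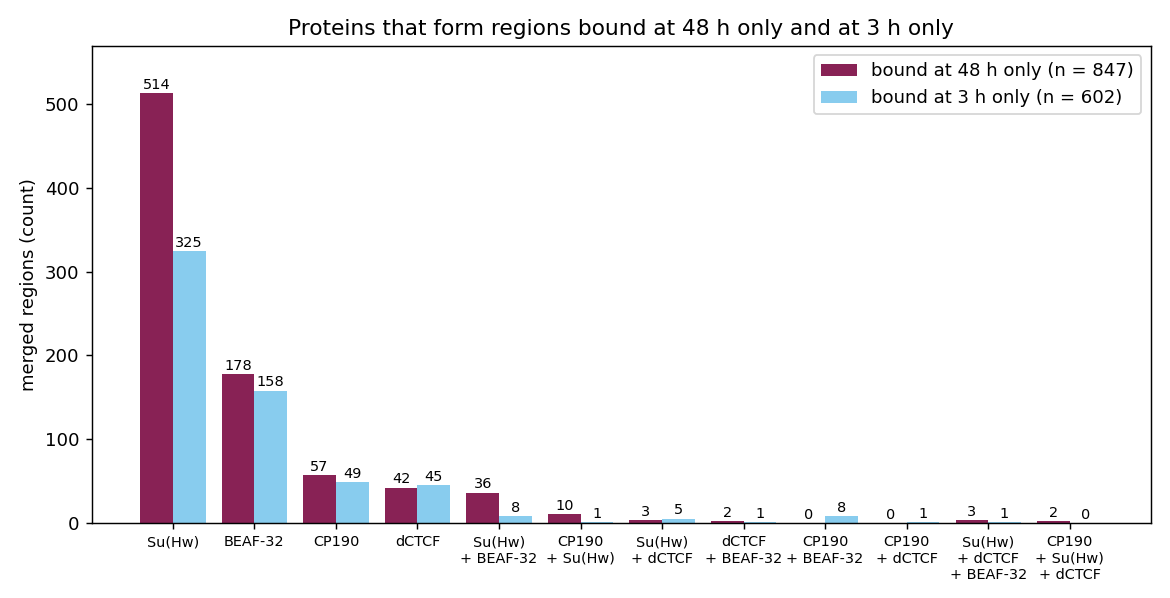
Number of merged regions (vertical axis) formed by each protein or combination of proteins (horizontal axis), for the 847 regions bound at 48 h only and the 602 bound at 3 h only. Su(Hw) alone formed 514 regions at 48 h only, and Su(Hw) with BEAF-32 formed 36, against 325 and 8 at 3 h only.

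Combinations were few. Of the 847 regions, 791 (93.4%, 91.5 to 94.9) held 1 protein, 51 held 2 and 5 held 3. None held all 4, which allows a share of up to 0.451% by the Wilson interval. By contrast, 54.8% of the 10754 48 h regions that overlapped a 0 h peak held 2 or more proteins. The rule itself removes any region near enough to an earlier peak of a partner to be merged with it, so part of that gap is built in.

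Su(Hw) and BEAF-32 lay together in 39 of the 56 regions with a combination, 36 as a pair and 3 with dCTCF, so BEAF-32 accompanied 6.87% of the Su(Hw) regions (5.06 to 9.25) and Su(Hw) accompanied 17.8% of the BEAF-32 regions (13.3 to 23.4). In the regions bound at 3 h only the 2 proteins met 9 times, in 2.65% of the Su(Hw) regions (1.40 to 4.95) and 5.11% of the BEAF-32 regions (2.71 to 9.43). In the 901 regions new at both times, read at 48 h, they met 47 times. That was 17.4% of the Su(Hw) regions (13.4 to 22.4) and 7.51% of the BEAF-32 regions (5.69 to 9.84). In 48 h regions that overlapped a 0 h peak the shares were 30.7% and 45.2%, so the pair is not particular to 48 h only. The count at 48 h only fell with the length of the lists: with lists of equal length, 51 regions held BEAF-32 and 6 of them Su(Hw). The pair was then in 6 of 27 combinations, against 10 for CP190 with Su(Hw) and 12 for Su(Hw) with dCTCF, so its lead was lost. The 0 h BEAF-32 list was the shortest of its 3 on the arms, with 4187 peaks before treatment, 5882 after 3 h and 5896 after 48 h.

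CP190 was found with Su(Hw) in 12 regions, 2 of them with dCTCF as well, and otherwise stood alone. It met BEAF-32 in 0 of 219 BEAF-32 regions, which allows a share of up to 1.72%. The same pair was found 8 times among the regions bound at 3 h only and in 32 of the 901 regions new at both times, read at 48 h. With lists of equal length, with all sequences counted or without the dCTCF lists, it was found once at 48 h only. dCTCF shared 8 regions with Su(Hw) and 5 with BEAF-32.

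Of the 52 dCTCF regions, 8 formed a single run of 106 kb at 2L:21417068-21522632, picked out after the data were seen. All 8 held dCTCF alone, with scores of 102.09 to 166.89. The 48 h list has 24 dCTCF peaks in this stretch and the 0 h list 17, and the median step between the 0 h peaks was 5049 bp. The regions lay 530 to 5685 bp from a 0 h peak. The peaks of such a run share a neighbourhood and are not independent of each other, and whether their sequences are alike was not tested. Without the run, 44 of 3309 dCTCF peaks (1.33%, 0.992 to 1.78) formed 48 h-only regions.

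Peaks were merged only where they overlapped, so the closeness of the peaks of a pair is largely built in. The distances between them are given as a description. In the 39 regions with Su(Hw) and BEAF-32, the centres of both peaks were 52.5 bp apart at the median (0.5 to 358.5 bp), and 28 pairs lay within 100 bp. The median distance was 77.5 bp for the 12 pairs of CP190 and Su(Hw) and 31.5 bp for the 8 pairs of Su(Hw) and dCTCF. The lists give peak ends and no summit, so the centre is the midpoint of each listed interval. In 28 of the 39 regions Su(Hw) ranked higher in its own list than BEAF-32 did in its own, and in 11 the order was the other way.

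Many new 48 h peaks of a protein lay outside these regions, because another protein had been there before. Su(Hw) had 841 peaks at 48 h that overlapped no Su(Hw) peak of 0 or 3 h, and 67.5% of them (64.3 to 70.6) formed 48 h-only regions. For BEAF-32 this held for 219 of 441 (49.7%), for dCTCF for 52 of 192 (27.1%) and for CP190 for 69 of 287 (24.0%, 19.5 to 29.3). Of those 287 CP190 peaks, 204 lay on a 0 h peak of another protein, and 148 of them on one of Su(Hw). CP190 new at 48 h was thus mostly listed at sites where a partner had a peak before the hormone. Su(Hw) new at 48 h was mostly listed where none of the 4 proteins had a peak before the hormone. CP190 shared its sites more often than Su(Hw) in general. In 48 h regions that overlapped a 0 h peak, 95.3% of those with CP190 held another protein, against 60.5% of those with Su(Hw). The share of all CP190 peaks on a partner's 0 h peak was not computed, so the contrast is not read as particular to new peaks.

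The peaks that formed the regions were weak in their own lists. Each score is the authors' own value for a peak, and scores start at 100 and reach 3233.06. Scores of 3100 and above, here called the ceiling, pile up and were counted as a tie. Each peak is given by its percentile rank in its own list on the arms, with 0 for the weakest and 100 for the strongest. The 219 BEAF-32 peaks had a median rank of 7.54 (0.0424 to 48.3), the lowest of the 4 proteins. The 52 dCTCF peaks had a median rank of 13.3 (0.0750 to 49.0), the 568 Su(Hw) peaks 16.1 (0.0300 to 83.0) and the 69 CP190 peaks 22.4 (0.203 to 89.6). Their median scores were 148.05 for BEAF-32, 147.14 for dCTCF, 169.45 for Su(Hw) and 221.05 for CP190. A lower rank is thus not a lower score across lists. Among these peaks, 19 of Su(Hw) and 7 of CP190 ranked in the upper 50% of their list, and none of dCTCF or BEAF-32 did. Without the run on 2L the dCTCF median was 16.3, so its order with Su(Hw) rested on those peaks. A peak at the ceiling has a rank set by the number of ties in its list, so such ranks are not compared between proteins.

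In the regions bound at 3 h only, CP190 ranked lower, with a median of 6.85 and a highest rank of 32.9 in the 3 h list. Su(Hw) had a median of 9.20 there, with 1 of 340 peaks in the upper 50%. The intervals of these medians did not overlap those at 48 h only, which were 15.7 to 28.1 for CP190 (5.06 to 10.3 at 3 h only) and 14.4 to 18.1 for Su(Hw) (8.23 to 10.6 at 3 h only). The CP190 median rested on the partners' lists, since without the Su(Hw) lists it was 13.7 and without the BEAF-32 lists 11.8. For dCTCF the medians were 13.3 at 48 h only and 13.0 at 3 h only, and for BEAF-32 they were 7.54 and 7.17. Regions new at both times, read at 48 h, had medians of 17.6 for Su(Hw) (15.35 to 21.0) and 13.8 for CP190 (11.5 to 17.5). These intervals overlap those at 48 h only, so the higher ranks of both were not particular to 48 h only. dCTCF had 16.1 there. BEAF-32 had 20.9 (19.1 to 21.9), against an interval of 6.45 to 8.79 at 48 h only.

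**Figure D2:**
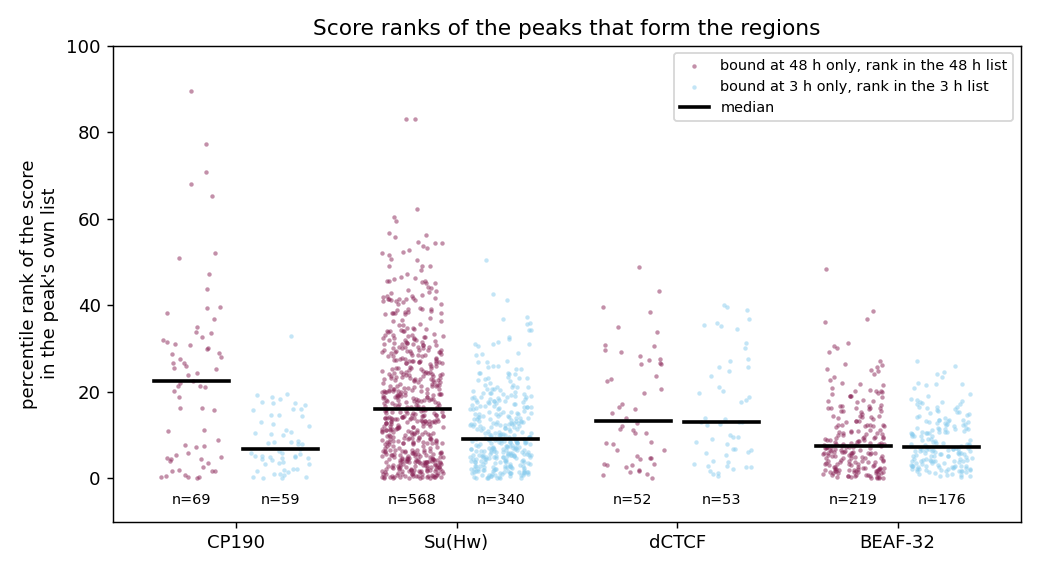
Percentile rank of the score in the peak's own list (vertical axis) for each peak that forms a region bound at 48 h only or at 3 h only, by protein; points are peaks and black bars medians. CP190 and Su(Hw) have medians of 22.4 and 16.1 at 48 h only and of 6.85 and 9.20 at 3 h only.

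Along the ranks, Su(Hw) and BEAF-32 began alike and parted. Each list was cut by rank into bins of 10 points. In the weakest bin, 22.7% of 48 h Su(Hw) peaks (20.0 to 25.7) and 22.9% of BEAF-32 peaks (19.7 to 26.4) formed 48 h-only regions. In the next bin the shares were 17.5% for Su(Hw) and 9.68% for BEAF-32, and in the third 13.4% and 3.39%. Equal ranks are not equal scores in the 2 lists. By score, Su(Hw) had 20.1% and BEAF-32 20.4% at 100 to 200, and 10.1% and 6.23% at 200 to 500. CP190 had 4.06% in the weakest bin, 1.06% in the next and 3.17% (2.02 to 4.96) in the third, with no steady order. dCTCF had 6.01%, 3.59% and 3.60% in the same bins, and 3.99% in the weakest bin without the run on 2L. At the ceiling, 2 of 2832 Su(Hw) peaks and 1 of 1180 CP190 peaks formed such regions, and none of 1144 dCTCF or 2662 BEAF-32 peaks did. The lists did not differ much in their number of weak Su(Hw) peaks: scores under 200 were held by 1652 peaks before treatment, 1741 after 3 h and 1731 after 48 h.

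**Figure D3:**
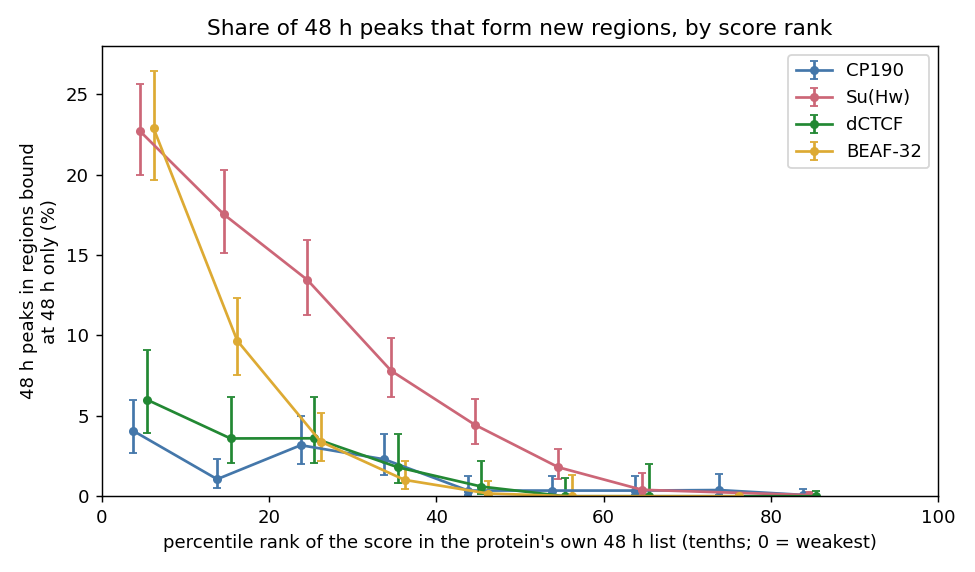
Share of each protein's 48 h peaks that lie in regions bound at 48 h only (vertical axis, %, with 95% Wilson intervals) by score rank in that list in bins of 10 points (horizontal axis; ties at the ceiling fall in 1 bin). In the weakest bin Su(Hw) has 22.7% and BEAF-32 22.9%, and in the third Su(Hw) has 13.4% and BEAF-32 3.39%.

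The peaks themselves were narrow. Regions of 1 protein had a median width of 533 bp and those of 2 or 3 proteins 717 bp. Su(Hw) peaks in the regions had a median width of 523 bp, against 681 bp for the other 48 h Su(Hw) peaks, and BEAF-32 peaks 535 bp, against 830 bp. For CP190 the widths were 890 bp and 1054 bp, and for dCTCF 687.5 bp and 703 bp. Su(Hw) peaks in regions with another protein ranked at a median of 21.4 (54 peaks), against 15.3 alone. BEAF-32 peaks did so at 12.2 (41 peaks), against 7.15 alone, and dCTCF peaks at 18.6 (10 peaks), against 12.5 alone. CP190 went the other way, with 21.8 together (12 peaks) and 23.8 alone.

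CP190 reached the score ceiling in 1 region. It lay at 3R:15061154-15062026, with a score of 3100, no other protein and the nearest 0 h peak 2519 bp away. The next 4 CP190 regions also held CP190 alone. They were 3L:21944336-21945574 (score 2770.96), 2L:21321096-21323837 (score 1922.51), 2L:16846633-16847952 (score 1696.02) and 3R:559219-560454 (score 1431.49). The first 3 of these lay 125, 175 and 554 bp from a 0 h peak, and the last lay 13872 bp away. Strong CP190 regions were thus found both beside earlier sites and far from them.

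Su(Hw) reached the score ceiling in 2 regions. At 2R:15162687-15163446 a BEAF-32 peak (score 149.8) lay in the same region, 7645 bp from any 0 h peak. At 2L:15915798-15916450 Su(Hw) was alone, 1767 bp from the nearest 0 h peak. Next came 3L:18152729-18153343, where Su(Hw) was again alone (score 2318.17). At 2R:4226154-4226834 the Su(Hw) score was 1959.93, and CP190 (221.05) and dCTCF (109.16) had peaks beside it. At 2L:10708930-10709723 Su(Hw) scored 1833.25 and CP190 340.68. A neighbouring region, 2L:10712107-10713187, held the same pair with scores of 1107.85 and 355.81. They lay 1173 and 375 bp from a 0 h peak.

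BEAF-32 scored highest at 2R:21052581-21053236, where it was alone (score 2006.85), 2685 bp from a 0 h peak. In the next 3 BEAF-32 regions Su(Hw) was present as well. They were 3R:25603419-25604420, with scores of 1029.68 for BEAF-32 and 324.28 for Su(Hw), 3L:21887509-21888346, with 913.43 and 413.63, and 3L:18178545-18179463, with 859.03 and 205.61. The fifth, 3R:17474610-17475283, held BEAF-32 alone (score 621.64). Thus 3 of the 5 highest-scoring BEAF-32 regions also held Su(Hw), beside 39 of all 219.

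dCTCF had no strong peak among the regions. Its highest score was 728.69, at 3R:21223888-21226004, where it was alone, and its rank there was 49.0. At X:18869812-18870449 it scored 508.84 beside Su(Hw) (227.76) and BEAF-32 (238.0). The others of its 5 highest were 2L:21349866-21350863, 3R:2159560-2160564 and 3R:11446465-11447725, all of dCTCF alone with scores between 326.17 and 410.79. The first and last of these lay 19 and 79 bp from a 0 h peak.

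The 5 regions with 3 proteins all held Su(Hw) and dCTCF. BEAF-32 was the third at 2L:12013481-12014343, 2R:11622409-11623383 and X:18869812-18870449, and CP190 at 2R:4226154-4226834 and 2R:17858021-17858841. At 2L:12013481-12014343 the ranks, each in the protein's own list, were 43.1 for Su(Hw), 29.2 for dCTCF and 30.6 for BEAF-32. At 2R:11622409-11623383 they were 55.9 for Su(Hw), 30.6 for dCTCF and 27.0 for BEAF-32. At 2R:17858021-17858841 the CP190 rank was 51.0, that of Su(Hw) 23.1 and that of dCTCF 16.6. They lay 295 to 3669 bp from the nearest 0 h peak.

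Few of the regions lay right beside a 0 h peak. The 0 h lists merge to 11734 regions on the arms, and distances for other places on the arms were not computed. The distances are therefore not read as nearness to earlier sites. The median distance to the nearest 0 h peak of any protein was 2004 bp (95% interval 1815 to 2298; quartiles 727.5 and 5416 bp). Of the 847 regions, 63 (7.44%) lay under 200 bp away, 204 (24.1%) at 200 to 1000 bp, 350 (41.3%) at 1000 to 5000 bp, 211 (24.9%) at 5000 to 20000 bp and 19 (2.24%) farther. The median was 1983 bp for the regions bound at 3 h only and 2021 bp for those new at both times, so the 3 classes had medians within each other's intervals. With regions under 1 kb from a 0 h or 3 h peak left out, 539 of the 847 regions remained, 382 of them with Su(Hw), and the median was 3938 bp.

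**Figure D4:**
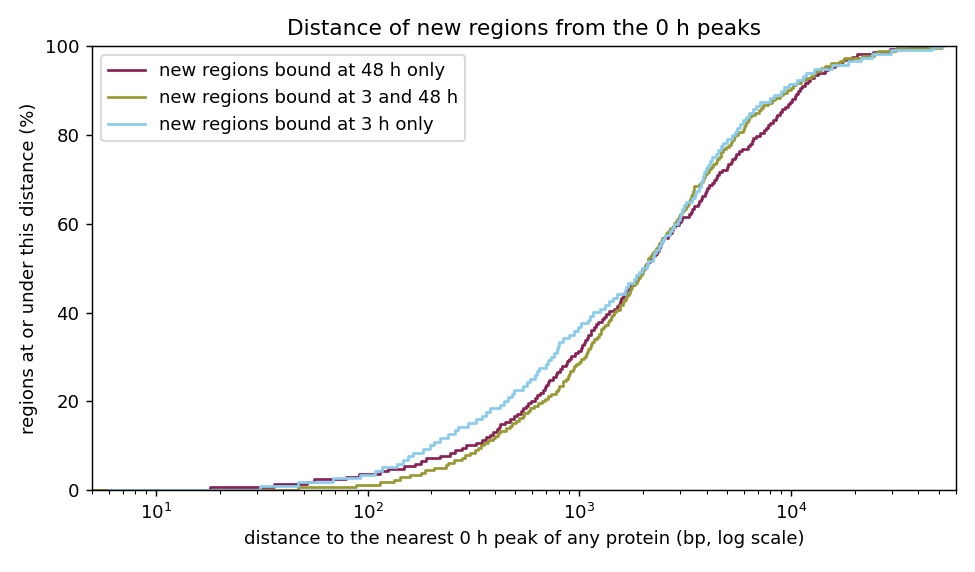
Cumulative share of regions (vertical axis, %) by distance to the nearest 0 h peak of any of the 4 proteins (horizontal axis, bp, log scale) for the 847 regions bound at 48 h only, the 901 new at 3 and 48 h and the 602 bound at 3 h only. The medians are 2004, 2021 and 1983 bp.

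Distances by protein mostly overlapped. Regions of dCTCF alone had a median of 866 bp (648 to 2147), which overlaps the intervals of the other 3 proteins, and without the run on 2L it was 1898 bp (85 to 4496). Of these 42 regions 12 (28.6%, 17.2 to 43.6) were under 200 bp from a 0 h peak, and none of the 12 was in the run. For Su(Hw) alone the median was 2118 bp (1887 to 2441), with 33 of 514 (6.42%, 4.61 to 8.88) under 200 bp. BEAF-32 alone had 1691 bp and CP190 alone 2419 bp, with wide intervals (1312 to 2388 and 1072 to 4350). Regions with 2 or more proteins had a median of 2043 bp. At 3 h only, Su(Hw) alone lay nearer, with a median of 1326 bp (957 to 1694). BEAF-32 alone lay farther there, with 2994 bp (2390 to 3633). Neither interval overlapped that at 48 h only, while those of CP190 alone and dCTCF alone did. Among the regions new at both times, Su(Hw) alone had 1747 bp (1342 to 2173), which overlaps both of its other intervals.

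The nearest 0 h peak belonged to Su(Hw) in 382 regions (45.1%), to CP190 in 248 (29.3%), to BEAF-32 in 134 (15.8%) and to dCTCF in 83 (9.80%). Of all 0 h arm peaks, 36.4% were of Su(Hw), 26.2% of CP190, 19.2% of BEAF-32 and 18.3% of dCTCF. The median distance to a 0 h peak of the region's own protein was 2845.5 bp for Su(Hw) alone, 5238.5 bp for BEAF-32 alone, 6487 bp for CP190 alone and 8477 bp for dCTCF alone (11924 bp without the run on 2L).

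Of the 568 Su(Hw) regions, 132 had a 0 h Su(Hw) peak within 1 kb, and in 120 of these (90.9%, 84.8 to 94.7) such a peak was still listed at 48 h, beside 88.6% of all 0 h Su(Hw) peaks. The counts were 40 of 40 for BEAF-32 regions, beside 90.02% of all 0 h BEAF-32 peaks, 13 of 14 for dCTCF, beside 77.6%, and 12 of 14 for CP190, beside 89.1%. For Su(Hw), dCTCF and CP190 the intervals held these shares over all peaks, and for BEAF-32 the lower limit of 91.2% was just above. The counts are of regions and the shares over all peaks are of single peaks. Nothing is thus read from them about the regions. Of all 847 regions, 276 (32.6%) lay within 1 kb of another 48 h peak that formed no such region.

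At the edge of the rule, the closest region kept was X:9771260-9771726 (Su(Hw), score 114.61), which touched a 0 h peak without sharing a base. It was followed by X:18708349-18708858 and 2L:17809618-17810122, both of Su(Hw), 4 and 5 bp from a 0 h peak. Just outside lay 3R:26507211-26508556, a dCTCF region that shared 7 bp with a 0 h BEAF-32 peak. Then came 2L:20578491-20579554 (dCTCF, 29 bp shared) and 3R:8545945-8546786 (BEAF-32, 40 bp shared). In all, 124 regions with 48 h peaks and no 3 h peak were left out for an overlap with a 0 h peak, and in 5 of them it was under 50 bp.

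At the other end, the farthest region was 3L:23439039-23439576, a BEAF-32 peak (score 230.58) with no 0 h peak within 44000 bp. The next, 3L:10770768-10771582, held Su(Hw) (437.62) and BEAF-32 (188.29) at 36847 bp, with a Su(Hw) region of score 101.2 at 3L:10768796-10769286 close by. These last had a 3 h peak much closer, at 2772 and 1530 bp. Of the 19 regions at 20000 bp or more, 7 held Su(Hw) alone, 6 BEAF-32 alone, 3 CP190 alone, 2 dCTCF alone and 1 a pair.

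Each large arm had its part of the regions. The share of an arm's 48 h regions that were bound at 48 h only was 7.59% on 3L (6.60 to 8.70), 7.14% on 2R, 6.84% on 3R, 6.41% on 2L and 5.87% on X (5.01 to 6.87). The intervals of 3L and X overlapped, and no neighbours in this order differed beyond their intervals. Su(Hw) was likewise highest on 3L, with 7.90% of its 48 h peaks (6.69 to 9.30) in such regions, and lowest among the large arms on X, with 5.05% (4.10 to 6.21), and the pair of intervals did not overlap. BEAF-32 stood highest on X instead, with 4.73% (3.66 to 6.09), against 2.57% on 2L (1.76 to 3.73). dCTCF had 3.06% on 2L (1.92 to 4.84) and 0.778% on 3L (0.333 to 1.81), but without the run on 2L its share there was 1.69% (0.893 to 3.18), an interval that overlaps that of 3L.

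**Figure D5:**
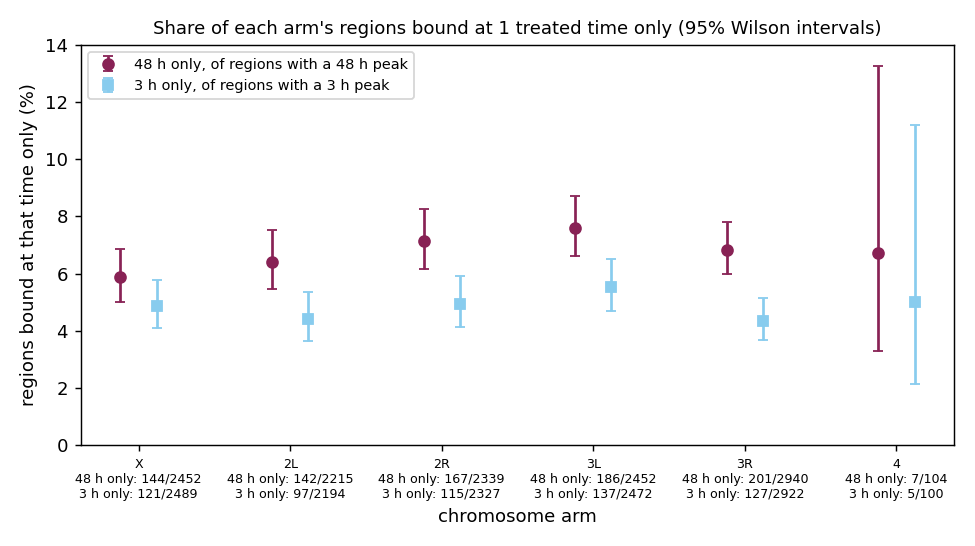
Share of each arm's regions bound at 48 h only (of regions with a 48 h peak) and at 3 h only (of regions with a 3 h peak), in % with 95% Wilson intervals; the counts stand under each arm. At 48 h only the large arms run from 5.87% on X to 7.59% on 3L, and chromosome 4 has 7 regions only.

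Chromosome 4, the small and largely heterochromatic chromosome, had 7 regions of 104 with a 48 h peak, and their make-up was unlike that of the large arms. CP190 alone formed 5 of them and dCTCF alone 2, so 5 of its 32 CP190 peaks (15.6%, 6.86 to 31.8) lay in such regions, beside 1.22% over all arms. Su(Hw) formed none, with 23 peaks at 48 h on that chromosome, which allows a share of up to 14.3%. The CP190 peaks, chosen for naming after their values were seen, were 4:248130-248744 (score 101.42), 4:655336-656482 (258.55), 4:660598-661542 (107.12), 4:795807-797043 (432.85) and 4:963557-964623 (297.35). Of these, 4 lay over 10000 bp from a 0 h peak and the last 779 bp from one.

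The ends of the large arms nearest the centromere were chosen after the data were seen. They were taken as the last 2 Mb with peaks on X, 2L and 3L and the first 2 Mb of 2R and 3R. These ends held 69 of the regions among 775 with a 48 h peak (8.90%, 7.10 to 11.1), against 6.63% elsewhere (6.20 to 7.10). Without the dCTCF run on 2L they held 61 of 751 (8.12%, 6.38 to 10.3), an interval that holds the share elsewhere. CP190 had 2.90% of its 48 h peaks in these ends in 48 h-only regions (1.48 to 5.61), against 1.04% elsewhere (0.806 to 1.35). BEAF-32 had 6.29% (4.44 to 8.84) against 3.54% (3.08 to 4.07). For Su(Hw) the shares were 6.56% and 6.85%, within each other's intervals. dCTCF had 4.98% (2.93 to 8.33) against 1.22% (0.884 to 1.67), but 8 of its 13 regions there came from the run on 2L, and without the run 5 of 237 peaks (2.11%, 0.904 to 4.84) were left, an interval that overlaps that of the share elsewhere.

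Most regions stood apart from one another. The median distance to the next 48 h-only region was 39703 bp, and 59 regions (6.97%) had one within 1 kb. These made 31 neighbouring pairs, and in 20 of them both regions held Su(Hw). Since Su(Hw) was present in 67.1% of all 847 regions, many such pairs are to be found in any case. In windows of 50 kb, 667 of 2354 windows with a 48 h region had at least 1 such region, 140 had 2 or more and 9 had 4 or more. In windows of 1 Mb with at least 20 such 48 h regions, the share had a median of 6.07%. It ran from 0% at 3R:3000001-4000000 (0 of 76, which allows up to 4.81%) to 16.0% at 3L:17000001-18000000 (21 of 131, 10.7 to 23.3).

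The fullest window of 50 kb was 3R:5750001-5800000, where 6 of 11 regions with a 48 h peak were bound at 48 h only. Su(Hw) was present in 4 of the 6, with scores of 131.65 to 490.9, and BEAF-32 in 3, with scores of 131.65 to 191.75. At 3R:17750001-17800000, 5 of 7 regions were bound at 48 h only. All 5 held Su(Hw) alone, and the strongest, 3R:17774089-17775492, scored 1003.51 at 16470 bp from the nearest 0 h peak. At 3L:17950001-18000000, 5 of 15 regions were bound at 48 h only, and all 5 held Su(Hw), in one case with dCTCF. The 3 windows, chosen for holding the most such regions, thus held 16 regions, 14 of them with Su(Hw), beside 568 of all 847 (67.1%). Whether Su(Hw) regions cluster was not tested.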

How the data were processed

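Each of the 12 ChIP samples came with 1 deposited peak list that gives each peak its interval, a name and a score. The submitters' processing notes name Bowtie 0.12.5 as a tool, and per the files each peak's name begins with MACS. For caller settings, control and build, the sources used here give nothing. The names U, Uextra and those ending in Het are of Release 5. Annotation and genome sequence of that build were not used here, so no gene is named and no sequence printed. The score is the authors' own deposited value for each peak; its definition is not given, so scores were ranked within a list. Read depth is unknown. The 2 input samples were not used.

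Starts were read as 0-based and are printed 1-based. Ties in rank took the mean rank. Distances count the bases between intervals. Medians carry binomial 95% order intervals. The rule for named regions took the 5 highest-scoring per protein, all with 3 or 4 proteins, the 5 pairs of highest mean rank, the 3 farthest from and nearest to a 0 h peak, the 3 excluded ones of smallest overlap and the 3 fullest windows. Alternatives varied the overlap, merging gap, clearance, list length, score minimum, sequences and proteins. The members, lists and alternatives were chosen with earlier results of these data known. The code was tested on simulated lists and gave the right class and distance for 100% of 528 regions. Computation used Python 3.11.15, numpy 2.4.6, pandas 2.3.3, scipy 1.17.1 and matplotlib 3.10.9.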

Additional observations from a re-analysis of the deposited data

Results flagged for a closer look

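The sequences left out by the rule also held regions bound at 48 h only. On U, Uextra, the pieces ending in Het and the mitochondrial genome there were 177 among 2366 regions with a 48 h peak (7.48%, 6.49 to 8.61), beside 6.77% on the arms. dCTCF alone formed 125 of the 177, CP190 alone 27, BEAF-32 alone 22 and Su(Hw) alone 1. The 48 h lists hold unequal numbers of peaks there, and as a share of them 7.45% of 1704 dCTCF peaks (6.30 to 8.80), 2.69% of 1041 CP190 peaks (1.87 to 3.86), 3.75% of 640 BEAF-32 peaks (2.53 to 5.52) and 4.35% of 23 Su(Hw) peaks (0.772 to 21.0) formed such regions. On the arms the shares were 1.56% for dCTCF, 1.22% for CP190, 3.71% for BEAF-32 and 6.82% for Su(Hw), so the intervals of BEAF-32 and Su(Hw) held their shares on the arms and those of dCTCF and CP190 lay above. Over all proteins the interval of 6.49 to 8.61 held the 6.77% of the arms. These regions lie in sequence that the counts of the report do not use.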

How the results depend on the processing

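No paired analysis was possible because each protein and time had 1 library and no result comes from a test. In all, 200 alternative values were computed under 12 settings, and 141 stayed within the limits of the reported value (1.5 times for counts, the 95% interval otherwise). Su(Hw) formed the most regions under the 11 settings that kept its lists. The regions depended most on the weak peaks. With the top 50% of the 48 h lists, 26 regions were left, 19 with Su(Hw), 7 with CP190, 0 with dCTCF and 0 with BEAF-32. All (100%) then held 1 protein, at a median distance of 1494 bp, with shares of 0.258% on 3L and 0.0614% on X. The cut also removes weaker partner peaks, and 14 of the 19 Su(Hw) peaks were alone with the full lists. Median ranks were 54.5 for Su(Hw) and 68.1 for CP190, and the cut itself places them in the upper 50%. With 48 h peaks of a score of at least 200, chosen after the data were seen, 323 regions were left, 220 with Su(Hw), 63 with BEAF-32, 40 with CP190 and 19 with dCTCF, of which 95.05% held 1 protein. Here too the cut itself removes weaker partner peaks and raises the ranks. The median ranks were 31.0 for Su(Hw), 19.1 for BEAF-32, 30.9 for CP190 and 29.2 for dCTCF, and the shares 3.45% on 3L and 2.24% on X. With no earlier peak within 1 kb, 539 regions were left, 130 with BEAF-32, 40 with CP190 and 24 with dCTCF, at 3938 bp, with 4.71% on 3L and 3.64% on X. With lists of equal length, 51 regions held BEAF-32, and 96.2% held 1 protein. Their BEAF-32 peaks had a median rank of 5.10 within the shortened list, which lacks the weakest peaks. That rank is therefore not comparable with the 7.54 in the full arm list. Merging peaks under 200 bp apart gave 730 regions at a median of 2435.5 bp. With all sequences, 179 regions held dCTCF, and BEAF-32 had a median rank of 9.16 within its list of all sequences. Without the Su(Hw) lists, 212 regions held CP190, at a median rank of 13.7, 97.0% held 1 protein and the median distance was 3336.5 bp. Without the BEAF-32 lists, 106 held CP190, at a median rank of 11.8, 97.6% held 1 protein and the distance was 2443.5 bp. Without the dCTCF run on 2L, a setting also chosen after the data were seen, 839 regions were left, 44 with dCTCF. An overlap of 50% in place of 1 bp gave 877 regions. The depth behind a missing peak is unknown, so absence from a list is not absence of binding.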
